A study of Arabidopsis thaliana with 4 samples.

Results

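The long retained introns described here are the 682 of 4690 introns in the retained-intron table that measure 300 bases or more between the end of the upstream exon and the start of the downstream exon. They lay in 554 genes, of which 449 held 1, 86 held 2 and 19 held 3 or more, with at most 5 in 1 gene. Their median length was 432.5 bases and their range 300 to 3480 bases, against a median of 99 bases for the 4008 shorter introns of the table. By length, 284 measured 300 to under 400 bases, 250 measured 400 to under 600, 106 measured 600 to under 1000 and 42 measured 1000 or more. Because alternative ends of one intron are listed separately, 202 of the 682 overlapped another long intron of the table and shared reads and sequence with it.

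The RNA came from untreated 7-day-old whole seedlings of Arabidopsis thaliana grown on sucrose medium, and libraries were made from polyadenylated RNA. The first genotype was MAC3BQ77A/D81A-GFP (Q77A below, 2 libraries, numbered 1 and 3), which carries MAC3B with both substitutions and a GFP tag. The second was wild-type Col-0 (2 libraries, numbered 1 and 2). The labels name neither the promoter of the construct nor the state of the endogenous MAC3 genes. Nor do they say whether libraries came from separate cultures, so every p-value below measures only the spread between these samples. The retained-intron table numbers its groups 1 and 2, with 2 libraries each, and names no genotype. Inclusion is therefore compared by group number, whereas gene counts are compared by genotype.

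An intron is removed when the spliceosome joins the donor site at its start to the acceptor site at its end. When this fails or is skipped, the intron stays in the polyadenylated RNA, which is the commonest form of alternative splicing in plants. Such a transcript may be held in the nucleus, degraded, or translated through the intron where the intron keeps the reading frame. MAC3A and MAC3B are U-box ubiquitin ligases related to yeast Prp19 and are subunits of the MOS4-associated complex, a partner of the spliceosome in plants. Introns in Arabidopsis are mostly short, and long ones tend to lie near the start of genes and often enclose alternative exons.

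The gene counts held 23936296 and 30105517 fragments in Q77A libraries, against 23436163 and 24245300 in WT libraries. MAC3B (AT2G33340) stood at 1165 and 955 CPM (fragments per library total) in Q77A seedlings, against 154 and 160 CPM in WT seedlings. All 4 shoot and all 5 root marker genes examined had counts in every library. Over the long introns, group 1 libraries held 115402 and 144011 reads that cross an exon-intron boundary (boundary reads) or join the 2 exons (exon-joining reads), against 114346 and 116766 in group 2 libraries. In 13 of the 682 introns at least 1 library had no read of either kind. At least 10 reads of both kinds together in every library were found in 570 introns, at least 20 in 490 and at least 100 in 177.

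The splice sites of 9 long introns are printed because the results return to these introns, which were chosen after their values were seen. Each donor line gives 10 bases of exon and 20 of intron, and each acceptor line 24 bases of intron and 6 of exon, 5′ to 3′ on the transcribed strand, with the terminal dinucleotide of the intron in capitals. Coordinates and bases are those of the RefSeq annotation of TAIR10.1.
The intron of FCA (AT4G16280, chr4:9211512-9213586, minus strand, 2075 bases, coding region):
FCA donor: cagcagcaagGTatgtcaatctccatttta
FCA acceptor: cttaagtatcagtctttaatgcAGgctgtt
AGL31, also called MAF2 (AT5G65050, chr5:25982600-25984680, plus strand, 2081 bases, first intron):
AGL31 donor: ccggtgacaaGTaagctgctactttcctct
AGL31 acceptor: tttttttgttcatgatatctccAGcatgtc
MAF1, also called FLM (AT1G77080, chr1:28955864-28958333, plus strand, 2470 bases, first intron):
MAF1 donor: ccggtgacgaGTaagaagatactttccttt
MAF1 acceptor: aatgcatttttgttttatctccAGcatttc
FLK (AT3G04610, chr3:1254283-1254768, minus strand, 486 bases, first intron, 5′ UTR):
FLK donor: ctgataccacGTaatttcactgggttatct
FLK acceptor: atctggactctgaatttatgtcAGcgctct
GRF10 (AT1G22300, chr1:7879288-7879635, minus strand, 348 bases, coding region):
GRF10 donor: gaggaaggagGTattcttattttcttttgt
GRF10 acceptor: caccttttttttttcccctcttAGatgaga
RS31A (AT2G46610, chr2:19137682-19138386, minus strand, 705 bases, coding region):
RS31A donor: atgaagtctgGTaaaacgttttcttgcact
RS31A acceptor: tcttgagtttttgttttcttgcAGgttatg
RS2Z32 (AT3G53500, chr3:19835913-19836400, minus strand, 488 bases, coding region):
RS2Z32 donor: gatacggaagGTaaagagtcatattccttt
RS2Z32 acceptor: attttctggcaacaatttacgcAGagtacg
SAHH1 (AT4G13940, chr4:8056140-8056706, plus strand, 567 bases, coding region):
SAHH1 donor: aggacttcagGTtcttacccttgaggatgt
SAHH1 acceptor: gagagagtcgacaaagcggttcAGgttcgg
UBQ10 (AT4G05320, chr4:2718640-2719551, plus strand, 912 bases, coding region):
UBQ10 donor: caacgttaagGCcaagatccaggataagga
UBQ10 acceptor: tctgacaccattgacaacgtgaAGgccaag
In the first 8, GT opens the intron and AG closes it, and UBQ10 opens with GC. The donor windows of the paralogues AGL31 and MAF1 carried the same base at 25 of 30 positions and their acceptor windows at 19 of 30.

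Among all 682 long introns, 677 opened with GT and closed with AG, 4 opened with GC and closed with AG, and 1, in AT1G61210, ran from AT to AC. The introns of AT1G61210 and UBQ10, which opens with GC, span direct repeats described below. Their end dinucleotides therefore depend on where the junction was placed within the repeat. The 7-base donor of the minor spliceosome, searched on the transcribed strand as GTATCCT or ATATCCT at the intron start, occurred in 3 long introns, or 0.440%, against 0.832% of all introns in the table. These were in ATG18C (AT2G40810), AT5G14850 and AT5G38600. The median donor score, a sum of log2 ratios of base frequencies over 9 positions, was 7.09 in long and 6.53 in shorter introns. The median acceptor score was 7.31 in long and 7.22 in shorter introns, and the median GC content 33.5% in long and 33.7% in shorter introns.

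Long introns lay toward the 5′ end of transcripts more often than shorter introns did. In RefSeq, 334 (49%) were in coding regions, against 63.4% of shorter introns, and 221 (32.4%) in 5′ UTRs, against 18.2%. Another 47 lay in 3′ UTRs, 27 in noncoding RNAs and 22 in places that differ between transcripts, while 31 are spliced in no RefSeq transcript. Of the 651 spliced in RefSeq, 248 (38.1%) were first introns, against 20.9% of shorter introns. An exon of the same gene that covers part of the intron was annotated inside 337 long introns (49.4%), against 18.0% of shorter ones, and an exon of another gene inside 53 (7.77%), against 3.44%. The place in the transcript did not follow the length limit. At 200 to under 300 bases 37.9% were first introns, 34.0% lay in 5′ UTRs and 48.2% in coding regions, close to the long introns. At 1000 bases or more 25.6% were first introns and 21.4% lay in 5′ UTRs. These shares describe the table and were not tested.

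Retention was measured as the inclusion level, the boundary reads per effective length over the sum of these and the exon-joining reads per effective length. The effective lengths were 298 and 149 bases for every long intron, so reads wholly inside an intron did not count and length did not enter the level. The median inclusion of the 490 long introns with at least 20 reads was 0.212 (quartiles 0.0834 and 0.607), against 0.145 in shorter introns. A larger share of long introns held annotated exons, as given above, and what reads of such exons added to inclusion was not tested. Inclusion exceeded 0.9 in 57 long introns (11.6%), against 9.36% of shorter ones, and was below 0.1 in 148 (30.2%), against 38.2%. Introns of 200 to under 300 bases were close to the long ones, with a median of 0.202, 9.80% above 0.9 and 28.0% below 0.1. Under 100 bases the median was 0.1215. Among long introns inclusion was hardly related to length (Spearman rho 0.06 over 490 introns), while rho was 0.22 with GC content, −0.22 with the total of reads and −0.13 with the acceptor score. In shorter introns rho was 0.11 with length, 0.21 with GC content, −0.14 with the total of reads and −0.20 with the acceptor score. These are correlations across introns that share libraries and in part reads.

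Inclusion varied with place in the transcript, described here without a test. The median was 0.130 for 262 coding introns, 0.318 for 136 introns in 5′ UTRs, 0.540 for 36 in 3′ UTRs and 0.583 for 16 in noncoding RNAs. In 5′ UTRs long introns had a lower median than shorter ones, whose median was 0.529, whereas in coding regions they were close, with 0.107 for shorter introns. The 20 introns not spliced in any RefSeq transcript had a median of 0.957, and 18 of them exceeded 0.9.

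**Figure D1:**
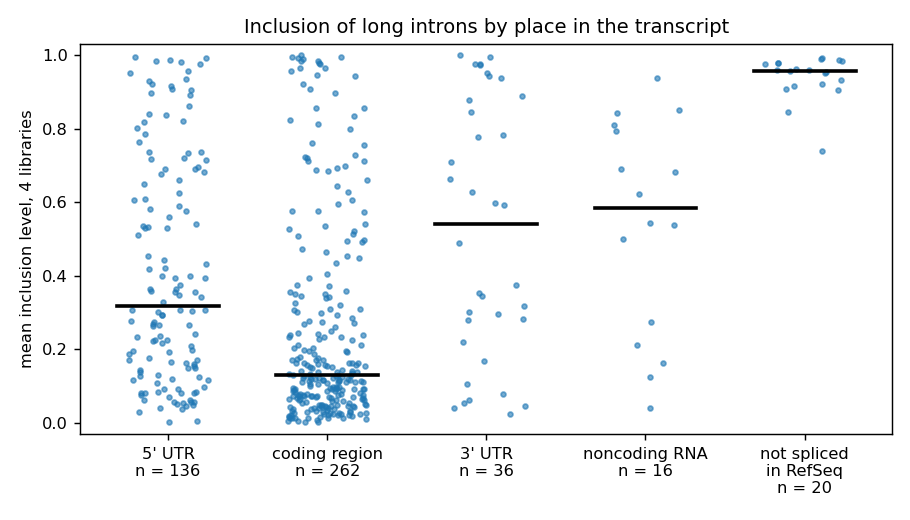
Mean inclusion level over 4 libraries of long introns with at least 20 junction reads in every library, by place in RefSeq transcripts. Each point is 1 intron and the bars are medians, which run from 0.130 in coding regions to 0.957 for introns that no RefSeq transcript splices. The 20 introns of mixed place are not drawn.

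Frame, acceptor site and exons annotated inside the intron varied with the inclusion level, again without a test. A length divisible by 3 leaves the frame downstream unchanged whether or not the segment is removed, provided that the segment holds no stop codon in frame. Stop codons were not searched for, so these shares describe length alone. Among long introns in coding regions it was found in 9 of 16 above 0.9 (56.2%), in 54 of 141 between 0.1 and 0.9 (38.3%) and in 25 of 105 below 0.1 (23.8%). For shorter coding introns the shares were 72.2%, 38.4% and 35.4%. The median acceptor score over all long introns was 6.24 above 0.9, 7.29 between and 7.62 below 0.1. Shorter introns showed the same order, with 5.37, 7.18 and 7.63.

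Among introns with at least 100 reads in every library, the 4 highest mean inclusion levels belonged to UBQ10, RPS10 (AT3G13120), SAHH1 and FTSZ2-1 (AT2G36250). UBQ10, one of the polyubiquitin genes, which encode head-to-tail copies of ubiquitin, had 11587 and 15420 boundary reads in group 1 and 10632 and 10466 in group 2. Its exon-joining reads numbered 11 and 0 in group 1, against 6 and 5 in group 2. SAHH1, an S-adenosylhomocysteine hydrolase that keeps methylation reactions running, had 27 and 29 exon-joining reads in group 1 libraries, against 4 and 21 in group 2 libraries, beside 8762 to 10295 boundary reads per library. In both genes exon-joining reads were thus absent or a small fraction of reads in every library. Both introns span direct repeats, described below, and the placement of reads in them was not tested. The FTSZ2-1 intron of 627 bases, in the 5′ UTR of a gene for a plastid division protein, had 1 and 3 exon-joining reads in group 1 and 0 in both group 2 libraries. The RPS10 intron of 452 bases lay in a 3′ UTR and had 0 and 3 exon-joining reads in group 1 and 0 in both group 2 libraries. A count of 0 allows up to 3 reads by counting error alone.

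The 4 lowest levels belonged to RPL37C (AT3G16080), a ribosomal protein gene, the coatomer subunit gene AT4G31480, PAP6 (AT3G23400) and AT4G26480. RPL37C had 1 and 7 boundary reads in group 1, against 6 and 3 in group 2, beside 919 and 1171 exon-joining reads in group 1 and 735 and 840 in group 2. PAP6 had an inclusion of 0.006 in both group 1 libraries and 0.003 in both group 2 libraries. All 4 introns were removed from nearly every transcript that reads could show.

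Direct repeats of 8 bases or more, one copy at the donor and one at the acceptor, spanned 5 of the 682 long introns (0.733%), against 1.32% of all introns of the table. With such a repeat, reads cannot place the junction more closely than within the repeat. Of the 5 introns, 4 had an inclusion above 0.9. The repeated stretches of these 4 are shown as the part that both ends share, with no letter in capitals.
UBQ10 repeat: aaggccaagatccaggataagga
AT1G61210 repeat: cttcagctactaatttgacatctgatg
AT1G54440 repeat: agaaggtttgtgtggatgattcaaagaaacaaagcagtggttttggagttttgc
SAHH1 repeat: ttcaggttc
Mean inclusion was 0.999 for UBQ10 (repeat of 23 bases), 0.944 for AT1G61210, a WD40 repeat protein gene (27 bases), 0.907 for AT1G54440, which encodes a protein with a ribonuclease H fold (54 bases), and 0.996 for SAHH1 (9 bases). The UBQ10 intron of 912 bases matched itself at 88.0% of positions when shifted by 228 bases, and the AT1G61210 intron of 306 bases at 91.5% when shifted by 153 bases. The fifth, of 352 bases in WRKY19, had a repeat of 8 bases and a mean inclusion of 0.0655. How the aligner places reads in repeated sequence can move these counts, and its part in them was not tested.

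No long intron passed a new test of the counts between the numbered groups, which does not show that inclusion was alike in them. With edgeR's quasi-likelihood test on boundary and exon-joining reads, 0 of 570 long introns passed an adjusted p of 0.05, against 0 of 3890 introns of all lengths (0.0%), and the smallest adjusted p among the long introns was 0.952. At an unadjusted edgeR p under 0.05 there were 21 long introns (3.68%), against a background of 4.01%. DESeq2, limma and a quasi-binomial test also made 0 calls among long introns, with 13, 23 and 37 at an unadjusted p under 0.05. An exact permutation of 2 against 2 libraries cannot give a two-sided p below 0.33.

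The authors' deposited table gave a false discovery rate under 0.05 for 105 long introns (15.4%), against 16.5% of all introns. Of these, 57 were lower in group 1 (background 8.72%) and 48 higher in group 1 (background 7.78%). Among the 105, 80 had the 10 reads per library needed for the edgeR test, and 15 of those had an unadjusted edgeR p under 0.05. The inclusion levels of the groups did not overlap in 55 of the 70 with at least 20 reads (background 31.7%), a count that rests on the same reads as the authors' calls. In UGT88A1 (AT3G16520, intron of 556 bases), for example, the authors' deposited table gave a false discovery rate of 0.000233, while inclusion was 1.0 and 0.991 in group 1 and 1.0 and 0.911 in group 2. Libraries of 1 group differed from each other nearly as much as libraries of different groups did. Over 111 deeply read long introns the mean chi-square between 2 libraries, 1 if only counting error were present, was 4.0 and 4.17 within groups and 4.35 to 4.80 between groups. The median absolute difference in inclusion was 0.049 and 0.053 within groups and 0.0435 to 0.059 between groups.

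**Figure D2:**
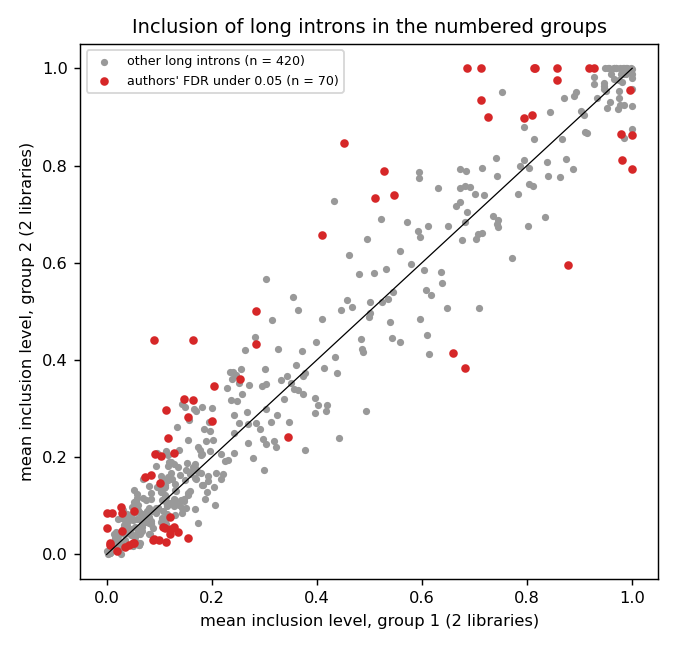
Mean inclusion level of 490 long introns with at least 20 junction reads in every library, group 1 on the x axis and group 2 on the y axis, each the mean of 2 libraries. The line marks equal levels, and the 70 introns in red had a false discovery rate under 0.05 in the authors' deposited table, 55 of them with groups that do not overlap.

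The long introns lay, by their median, slightly lower in group 1. Their median inclusion was 0.198 and 0.1885 in group 1 libraries, against 0.2245 and 0.225 in group 2 libraries, while for shorter introns it was 0.145 and 0.142 in group 1, against 0.144 and 0.145 in group 2. Pooled over reads, which lets the deepest introns dominate, long introns had an inclusion of 0.382 and 0.377 in group 1, against 0.378 and 0.372 in group 2, so this measure did not follow the median. The mean was lower in group 1 in 272 of the 490 long introns (55.5%), against 51.8% of all introns. Both group 1 libraries lay below both group 2 libraries in 90 long introns (18.4%, background 17.1%) and above them in 55 (11.2%, background 14.6%). The shares did not follow the length limit. At 200 to under 300 bases 56.6% were lower in group 1, with 18.2% wholly lower and 10.6% wholly higher, while at 400 to under 600 bases 52.0% were lower, with 16.2% wholly lower and 13.4% wholly higher.

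By the shares of introns whose groups do not overlap, the leaning toward lower levels in group 1 was widest in the longest introns. This length class was set at 600 bases after the values were seen. Of 109 such introns, 26 (23.9%, background 17.1%) lay wholly lower in group 1 and 6 (5.50%, background 14.6%) wholly higher. Their median inclusion was 0.22 and 0.186 in group 1 libraries, against 0.22 and 0.266 in group 2 libraries, so by library medians the groups touched. In the authors' deposited table, 12 introns of this length had a false discovery rate under 0.05 and were lower in group 1, and 10 were higher. The 26 included the introns of AGL31 and FCA, the 3298-base intron of GAD2 (AT1G65960), a glutamate decarboxylase gene, and the 3480-base intron of the noncoding RNA AT3G27990. GAD2 had an inclusion of 0.014 and 0.018 in group 1, against 0.019 and 0.028 in group 2. AT3G27990 had 0.207 and 0.200 in group 1, against 0.390 and 0.302 in group 2, and exons of AT3G27980 cover 42.9% of its intron. The 6 included SRL1 (AT5G37370), a PRP38 family splicing factor gene, with 0.382 and 0.310 in group 1, against 0.243 and 0.240 in group 2, and SUE4 (AT3G55880), with 0.105 and 0.070 in group 1, against 0.052 and 0.009 in group 2. None of these introns passed the edgeR test, and no test of the length class was made.

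**Figure D3:**
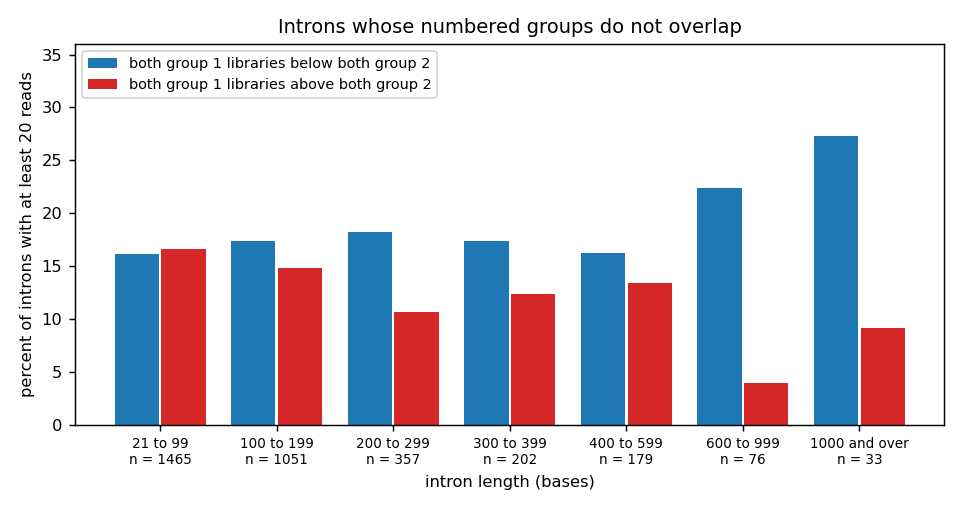
Percent of introns with at least 20 junction reads in every library whose 2 group 1 libraries both lie below (blue) or both above (red) the 2 group 2 libraries, by intron length. At 600 to under 1000 bases the shares were 22.4% below and 3.95% above, and under 100 bases 16.2% below and 16.6% above.

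Of the 5 longest introns, the other 3 did not show a common direction. The 2470-base first intron of MAF1, a MADS-box repressor of flowering, had an inclusion of 0.040 and 0.096 in group 1, against 0.073 and 0.078 in group 2, and the groups overlapped. AT1G44125, a noncoding RNA gene that overlaps AT1G44120, held 2 introns of 2453 and 3177 bases that share a donor. Neither is spliced in a RefSeq transcript. Exons of AT1G44120 cover 97.7% of the 2453-base intron and 95.3% of the 3177-base intron, and what their reads added to the boundary reads was not tested. Inclusion of the 2453-base intron was 1.0 and 0.892 in group 1, against 0.929 and 1.0 in group 2. Inclusion of the 3177-base intron was 1.0 and 0.953 in group 1, against 0.9 and 0.947 in group 2, with at most 3 exon-joining reads in any library.

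Among long introns with at least 20 reads and groups that do not overlap, the 12 smallest unadjusted edgeR p-values were examined after the values were seen. Of the 12, 11 lay lower in group 1, where 90 of all such long introns lay lower and 55 higher. Over introns of all lengths 575 lay lower and 492 higher. The direction of these 12, chosen by the same values, was not tested. GRF10, a 14-3-3 protein gene, had 16 and 20 boundary reads in group 1, against 49 and 43 in group 2, and 1461 and 1514 exon-joining reads in group 1, against 1138 and 1268 in group 2. Its inclusion of 0.005 and 0.007 in group 1, against 0.021 and 0.017 in group 2, gave a log2 odds ratio of −1.66 (SE 0.424, edgeR adjusted p = 0.952). AGL31, a relative of MAF1 that also delays flowering, had 3 and 10 boundary reads in group 1, against 27 and 25 in group 2. Its inclusion was 0.003 and 0.009 in group 1, against 0.023 and 0.026 in group 2, with a log2 odds ratio of −2.03 (SE 0.601, edgeR adjusted p = 0.952). Both introns were spliced from nearly all transcripts in every library, so these ratios rest on few boundary reads. In 7 of the 12 no exon-joining read was seen in either group 2 library, so no fold is given. Of these, the noncoding RNA AT2G42365 had 12 and 9 exon-joining reads and an inclusion of 0.619 and 0.753 in group 1, against an inclusion of 1.0 in both group 2 libraries. Exons of AT2G42360 cover 63.6% of this intron, and what their reads added to the boundary reads was not tested. AT4G12850, a FAR1 family gene of phytochrome signalling, had 4 and 6 exon-joining reads and an inclusion of 0.733 and 0.692 in group 1, against 1.0 in both group 2 libraries. The single one that was higher in group 1 was the 504-base intron of AT5G62720, with 0.023 and 0.016 in group 1, against 0.007 and 0.007 in group 2.

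Splicing regulator genes held 14 of the long introns, in 9 of the 28 genes listed. Most belong to SR proteins, which bind exons and recruit the spliceosome, and whose long introns are known to enclose alternative exons that introduce stop codons. Their inclusion was intermediate, with a median of 0.371 and a range of 0.073 to 0.644 over the 13 introns with 20 reads. Of the 13, which include overlapping introns of the same gene, 9 had a lower mean in group 1 (background 51.8%). Among the 13, 3 lay wholly lower in group 1 (background 17.1%) and 1 wholly higher (background 14.6%). The 3 were the RS2Z32 intron and 2 introns of SR34A (AT3G49430), of 535 and 929 bases, that share a donor. None of the 14 passed the edgeR test. RS2Z32 had an inclusion of 0.190 and 0.211 in group 1, against 0.296 and 0.255 in group 2, and the groups did not overlap. RS31A had 0.294 and 0.469 in group 1, against 0.684 and 0.680 in group 2. It had only 16 reads in its shallowest library and is not among the 13. Exons of AT2G09740 cover 69.6% of its intron, and what their reads added to the counts was not tested. SR45A (AT1G07350) went the other way, with 0.540 in both group 1 libraries, against 0.477 and 0.479 in group 2 libraries. The donors of RS40, ATRSP41, SR34b, SR30 and SR34A each served 2 listed introns with different acceptors, so these pairs shared reads. In these pairs the groups overlapped in every intron but those of SR34A. None of the 10 listed genes of the MOS4-associated complex held a long intron in the table.

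Flowering-time genes held 5 long introns, in 5 of 15 genes listed, and 4 had a false discovery rate under 0.05 in the authors' deposited table (background 16.5%), while none passed the edgeR test. FCA, an RNA-binding protein of the autonomous pathway that is known to end part of its own transcripts within an intron, had 86 and 134 boundary reads and 46 and 43 exon-joining reads in group 1. In group 2 it had 109 and 164 boundary reads and 15 and 36 exon-joining reads. Its inclusion was 0.483 and 0.609 in group 1, against 0.784 and 0.695 in group 2, and the groups did not overlap (log2 odds ratio −1.22, SE 0.688, edgeR adjusted p = 0.999). Boundary reads do not tell a retained intron from a transcript that ends within it, and the part of such ends was not tested. FLK, a KH-domain RNA-binding protein of the same pathway, had 0.184 and 0.146 in group 1, against 0.360 and 0.275 in group 2. MAF3, another MADS-box repressor, had 0.029 and 0.070 in group 1, against 0.036 and 0.011 in group 2, so its groups overlapped. With AGL31, then, 3 of the 5 lay wholly lower in group 1 (background 17.1%). Of 14 clock genes only JMJ30, a histone demethylase gene, held a long intron, of 300 bases. Its inclusion was 0.418 and 0.574 in group 1, against 0.484 and 0.814 in group 2.

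**Figure D4:**
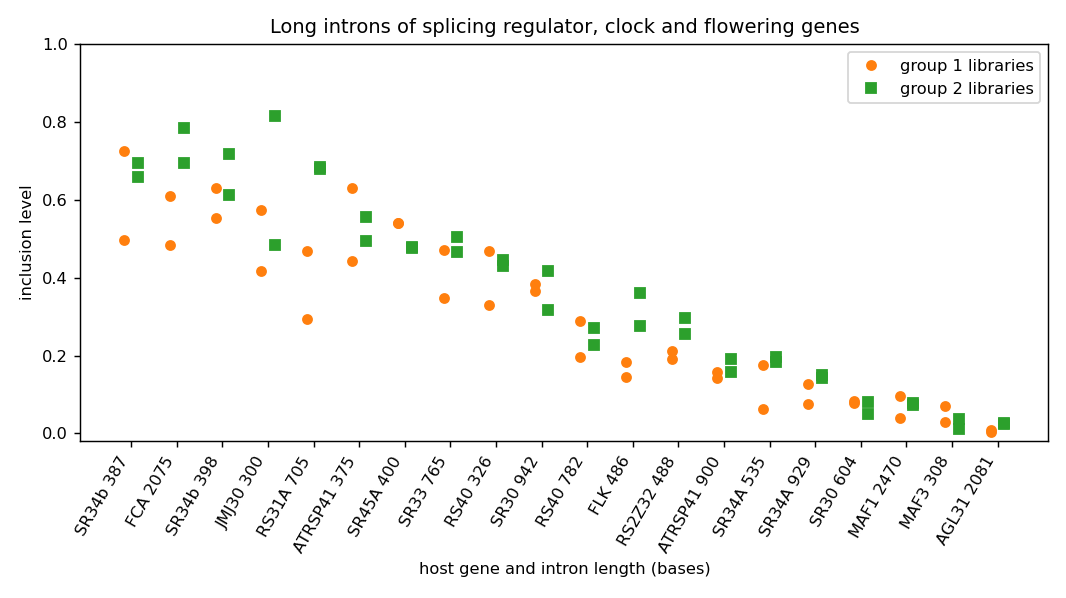
Inclusion level of the 20 long introns in listed splicing regulator, clock and flowering genes, each labelled by host gene and length in bases. Circles are the 2 group 1 libraries and squares the 2 group 2 libraries. FCA, FLK, RS31A, RS2Z32 and AGL31 are among those whose circles all lie below their squares, while SR45A lies the other way.

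Host genes could be compared by genotype. CPM of host genes are scaled by TMM factors as well as by library totals. All 682 long introns lie inside an exon over which the authors counted genes, so reads within a retained intron added to its host gene's count. Of 547 host genes tested with edgeR, 18 passed an adjusted p of 0.05 (background 3.01%), 4 higher (background 1.68%) and 14 lower (background 1.33%) in Q77A seedlings. The median log2 fold change was −0.03 over host genes and 0.00 over all genes tested. The calls depended on single libraries, since 3 of the 18, BT1, AT5G62720 and AT4G32460, passed without each library in turn, and 4 of the 18 passed without the first WT library.

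BT1 (AT5G63160) and BT2 (AT3G48360), which encode BTB-TAZ scaffold proteins that respond to nitrate, sugar and light, were lower in Q77A seedlings. BT1 stood at 101 and 91.4 CPM in Q77A libraries, against 178 and 173 CPM in WT libraries (log2 fold change −0.87, SE 0.0795). BT2 stood at 179 and 188 CPM in Q77A libraries, against 273 and 256 CPM in WT libraries (log2 fold change −0.53, SE 0.0742). The call for BT2 was lost without the first WT library (edgeR adjusted p = 0.0520). Their long introns, of 346 and 342 bases, were seldom retained. Inclusion in BT1 was 0.102 and 0.137 in group 1, against 0.119 and 0.088 in group 2, and the groups overlapped.

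AT5G62720, which encodes an HPP family membrane protein, stood at 87.3 and 89.0 CPM in Q77A libraries, against 136 and 126 CPM in WT libraries (log2 fold change −0.57, SE 0.0798). FCA stood at 36.7 and 42.3 CPM in Q77A libraries, against 54.2 and 51.0 CPM in WT libraries (log2 fold change −0.41, SE 0.0995), and its call was lost without the first Q77A or either WT library. CYP76C6 (AT1G33720), a cytochrome P450 gene, was low throughout, at 1.32 and 1.78 CPM in Q77A libraries, against 5.19 and 4.51 CPM in WT libraries. CIA2 (AT5G57180), a regulator of plastid protein import genes, stood at 31.7 and 30.4 CPM in Q77A libraries, against 44.1 and 42.5 CPM in WT libraries. In each of these genes the genotypes did not overlap.

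AT4G32460, which encodes a DUF642 protein, stood at 50.2 and 41.6 CPM in Q77A libraries, against 27.6 and 27.9 CPM in WT libraries (log2 fold change 0.73, SE 0.110). RS31A stood at 9.38 and 11.1 CPM in Q77A libraries, against 3.55 and 5.93 CPM in WT libraries (log2 fold change 1.11, SE 0.233). Exons of AT2G46600 and AT2G09740 overlap 29.1% of its exons, counts carried no strand, and its call was lost without the first WT library (edgeR adjusted p = 0.236). The other 2 higher host genes were AT1G79520, a cation efflux family gene, and the noncoding RNA AT3G29644. Since the labels of the retained-intron table name no genotype, a host gene's change and its intron's difference were not set side by side. Whether read depths could match the numbered groups to the genotypes was not tested.

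**Figure D5:**
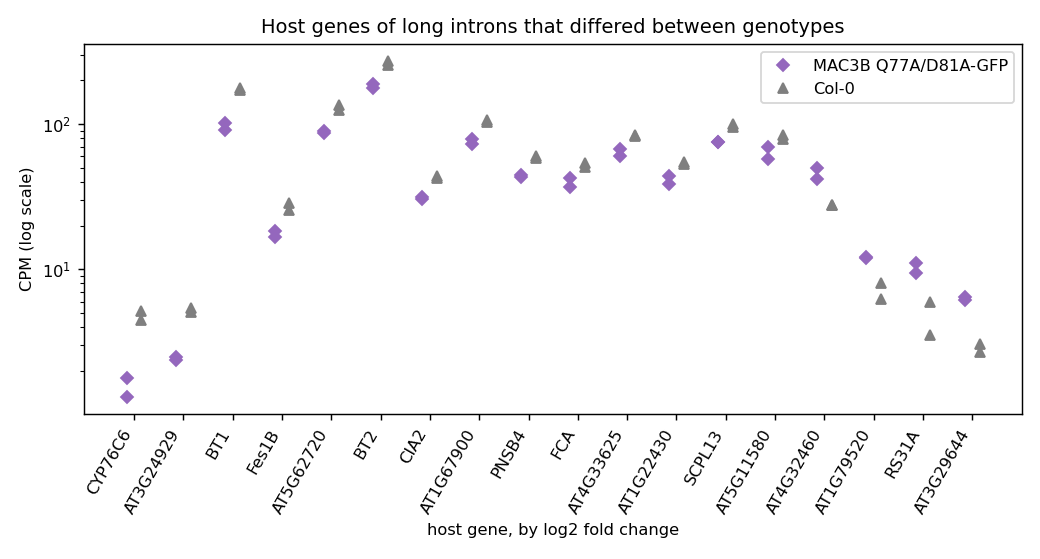
CPM on a log scale of the 18 host genes with an edgeR adjusted p under 0.05, ordered by log2 fold change of Q77A over WT. Diamonds are the 2 Q77A libraries and triangles the 2 WT libraries. The 14 genes on the left are lower and the 4 on the right higher in Q77A.

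At the length limit, members of 300 bases were found in AT4G31480, ATG12B (AT3G13970) and AT3G06630. AT4G31480 had an inclusion of 0 and 0.111 in group 1, against 0.026 and 0.048 in group 2. ATG12B had 1.0 and 0.840 in group 1, against 0.375 and 1.0 in group 2, and AT3G06630 had 1.0 and 0.467 in group 1, against 0.385 and 0.143 in group 2. AT4G31480 and AT3G06630 had only 9 and 8 reads in their shallowest library, too few for the edgeR test. Introns 1 base shorter, just outside, were found in AT3G13430, AT3G26910 and AT1G27921, and levels on either side of the limit covered a wide and overlapping range. AT3G13430 had 0.110 and 0.125 in group 1, against 0.096 and 0.101 in group 2. AT3G26910 had 0.474 and 0.160 in group 1, against 0.016 and 0.075 in group 2, and AT1G27921 had 0.507 and 0.626 in group 1, against 0.671 and 0.576 in group 2.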

How the data were processed

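Polyadenylated RNA of 7-day-old seedlings was sequenced (2 Q77A and 2 WT libraries). Gene counts were deposited by the authors, made with featureCounts 2.0.1 over exons of the TAIR10 annotation without strand, per the file headers. HISAT2 2.2.0, STAR 2.7.9a and DESeq2 1.30.1 are named in the submitters' processing notes, and which aligner fed which file is not given in the sources used here. The deposited retained-intron table is an rMATS output (version not given in the sources used here) with the authors' junction read counts per library, inclusion levels, p-values, false discovery rates and a difference score (group 1 minus group 2). A deposited table of intron coverage signal by genotype overlapped 0 of the 682 long introns, so the comparison of genotypes planned on it could not be made. A further 12 per-library columns, log2 copies and a second sheet of chosen introns, were not used.

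Boundary and exon-joining reads were tested in edgeR 4.0.16 with 1 coefficient per library and the interaction of read type with group, for introns with at least 10 reads in every library. Gene counts were tested in edgeR with TMM scaling and filterByExpr. CPM of host genes uses TMM-scaled library sizes, and CPM of MAC3B and the marker genes uses library totals. P-values were adjusted by Benjamini-Hochberg over all introns or genes tested. DESeq2 1.42.0, limma 3.58.1 (0.5 added to counts) and a quasi-binomial test were alternatives. The tests were checked on simulated data, in which the inclusion test missed most of the smaller changes put in. RefSeq TAIR10.1 gave places and sequences. At the deposited coordinates 99.9% of long introns opened with GT or GC and closed with AG there. Members, gene lists and naming rules (called introns, of which there were none; the 5 longest; the 4 highest and 4 lowest inclusion levels; listed genes; neighbours of the length limit) were chosen with earlier results of these data known.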

Additional observations from a re-analysis of the deposited data

How the results depend on the processing

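No paired analysis was possible because the genotypes share fewer than 2 replicate numbers (only 1 by sample titles, only 3 by library names) and the numbered groups carry no pairing. Counts of called long introns were 0 with each read filter, test and length limit tried, and ranged from 0 to 1 with 1 library left out: UGT88A1 was called without the first and SAHH1 without the second group 2 library. Over all introns the count was 1 with at least 1 read in every library, 1 with the quasi-binomial test, and 0 to 2 with 1 library left out. Called host genes numbered 18 with RLE factors or library totals, 15 with DESeq2, 29 among genes with at least 1 count, and 4 to 53 with 1 library left out (4 without the first WT, 7 without the second WT, 27 without Q77A library 1 and 53 without Q77A library 3). No called host gene turned its sign. Of single values, 34 gene values lost their call, and the log2 odds of JMJ30 was 0.0730 without the second group 2 library and ranged from −2.12 to 0.0730 with 1 library left out. The share of long introns lower in group 1 was 53.1% to 58.6% without 1 library and 53.7% to 55.9% over the other filters. The share of introns of at least 600 bases lying wholly lower was 19.5% to 26.8% and wholly higher 2.44% to 6.25%. These last alternatives, and the quasi-binomial test, were chosen after seeing the data. With 1 library left out, the lone library of its group was assumed to vary like the others. The planned score fits were not run, since no long intron was in that table. Reads were enough to test 570 of 682 long introns, and precision is also limited by 2 libraries a group.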
